A study of Homo sapiens with 2 samples.

Results

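The platelet-derived growth factor (PDGF) system was examined in the telomerase-immortalised human line hTERT-RPE1, which comes from retinal pigment epithelium, after transfection with a miR-129-3p oligo or a control oligo. The 6 genes were the ligands PDGFA, PDGFB, PDGFC and PDGFD and the receptors PDGFRA and PDGFRB, represented by every probe set whose only annotated gene was one of them. These were 15 probe sets of 41091 with a single gene name, and 6 genes of 19775. The miR-129-3p group and the control group each held 1 Affymetrix expression array, hybridised with biotin-labelled cRNA from 100 ng of total RNA taken 72 h after lipid transfection. Both cultures grew in DMEM/F-12 with 10% FBS and 0.01 mg/ml hygromycin B, and serum is a known source of PDGF. The labels give a miR-129-3p overexpression group and a control, 1 line, and no repeat culture; the sequence of the control oligo is not given in the sources used here.

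PDGFs are disulphide-linked dimers that draw their receptors together, which turns on the receptors' tyrosine kinases and, through docked adaptors, RAS-ERK, PI3K-AKT and phospholipase C signalling. PDGF-A and PDGF-B are activated by furin-like proteases inside the cell, whereas PDGF-C and PDGF-D are secreted with a CUB domain that extracellular proteases such as tissue plasminogen activator and urokinase remove. The system is best known for the growth and migration of fibroblasts and mural cells, and in the eye for proliferating pigment epithelium and glia behind a detached retina.

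The sequence delivered was that of miR-129-3p, which is made from a pair of human loci, and both mature forms are shown because the labels do not say which of them the oligo copied. They are RefSeq sequences of GRCh38.p14, plus strand, at chr7:128207920-128207941 and chr11:43581450-43581471, with the seed (bases 2 to 8) in capitals.
hsa-miR-129-1-3p: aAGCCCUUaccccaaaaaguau
hsa-miR-129-2-3p: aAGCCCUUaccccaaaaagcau
Both share the seed AGCCCUU and differ by 1 base, U20C, counted from the 5′ end and read from the first form to the second. Matches to this seed in the transcripts of the 6 genes were not analysed here.

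Values are array signals on a linear scale. Each difference is log2(signal + 16) on the array of miR-129-3p less that on the array of the control, a scale that understates differences of dim genes, and a probe set passes the filter when its brighter array reads 100 or more. With 1 array per group no difference could be tested, and each compares these 2 arrays, not the conditions. The median signal was 98.0 on the miR-129-3p array and 96.5 on the control array over 54613 probe sets. As a yardstick, differences of probe sets of the same gene had a pooled SD of 0.37 over 6179 genes with at least 2 probe sets above the filter, a spread within arrays that leaves out the spread between cultures. Because RNA was taken from whole cultures, fewer cells of a kind and less RNA per cell cannot be told apart.

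Of the 6 genes, PDGFB stood out as much lower with miR-129-3p, PDGFA was moderately lower, PDGFC and PDGFRB differed by less than the pooled SD above, PDGFRA gave probe sets of opposite sign, and PDGFD was dim on both arrays. Of the 15 probe sets, 9 passed the filter. At least 2-fold lower were 2 of these 9, both for PDGFB, and at least 2-fold higher were 0, against 4.80% and 7.55% of all 23707 single-gene probe sets above the filter. At the weaker limit of 1.5-fold the counts were 3 lower and 1 higher, against 11.1% and 16.7% of all. The median difference of the 9 was -0.23, and that of all 23707 was 0.03. The 2 PDGFB probe sets passed only through the control array, where they were bright.

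**Figure D1:**
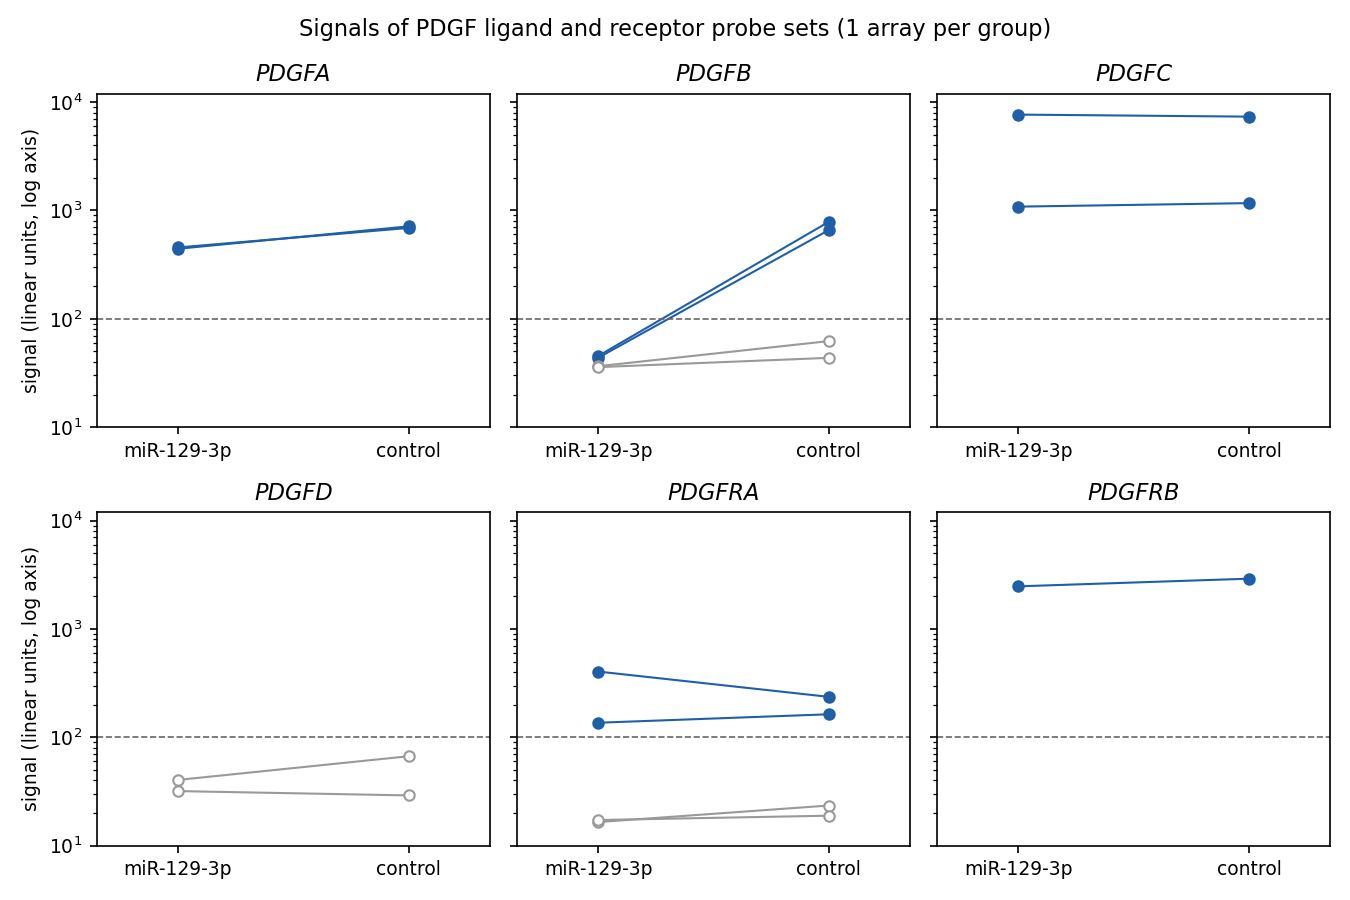
Signal of each PDGF probe set (linear units on a log axis) on the miR-129-3p array, left, and the control array, right, 1 panel per gene and 1 line per probe set, with 1 array per group and no error bars. Filled points belong to probe sets that pass the filter of 100 (dashed line). The 2 filled PDGFB lines run between 45.3 or 43.6 with miR-129-3p and 787 or 660 in control, while those of PDGFC and PDGFRB are nearly flat.

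Among the ligands, PDGFB encodes the B chain, which binds both receptors and recruits mural cells to vessels. Its probe set 216061_x_at read 45.3 on the miR-129-3p array and 787 on the control array, a log2 difference of -3.71. Its probe set 204200_s_at read 43.6 with miR-129-3p and 660 in control, a difference of -3.50. The 2 estimates lay 0.21 apart, less than the pooled SD of 0.37. This closeness says little about the size of the difference, because both miR-129-3p readings were under the filter. Suffixes _s_at and _x_at mark probe sets whose probes can match more than 1 transcript, so neither is fully specific by design. On the miR-129-3p array both read below the filter value, near the lower quartile of that array (44.9), and a signal there may be background. Taking 100 as the miR-129-3p signal instead of the lower reading, PDGFB was at least 7.87-fold lower on the first probe set and at least 6.60-fold lower on the second.

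The remaining PDGFB probe sets carried no usable signal. Probe set 216055_at read 36.5 with miR-129-3p and 62.3 in control, and 217112_at read 35.8 with miR-129-3p and 43.6 in control, so all 4 readings were under 100. No difference was read from them. Of the 4293 single-gene probe sets whose brighter array read from 500 to under 1000, the band that holds both bright PDGFB probe sets, 6.34% were at least 2-fold lower. This band was chosen after the PDGFB values were seen.

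PDGFA encodes the A chain, a ligand of the alpha receptor. Probe set 205463_s_at read 443 on the miR-129-3p array and 714 on the control array, a difference of -0.67 (1.59-fold lower). Probe set 216867_s_at read 455 with miR-129-3p and 690 in control, a difference of -0.58. The 2 probe sets thus gave nearly the same reading on each array, and their differences, 0.09 apart, were both beyond the spread of 0.37 but short of 2-fold. Of the genes above the filter, 8.78% had a lower difference than PDGFA.

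PDGFC encodes a CUB-domain ligand that acts mainly through the alpha receptor. Probe set 218718_at read 7666 with miR-129-3p and 7338 in control, a difference of 0.06, and 222719_s_at read 1084 with miR-129-3p and 1168 in control, a difference of -0.11. The signs differ, and both values are within the spread between probe sets. PDGFD, the other CUB-domain ligand, acts mainly through the beta receptor. Its probe sets read 40.4 and 31.9 with miR-129-3p and 66.9 and 29.1 in control, all under the filter, so no difference in PDGFD could be read at these signals.

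Among the receptors, PDGFRA encodes the alpha receptor, which binds all chains but D. Probe set 203131_at read 404 on the miR-129-3p array and 236 on the control array, a difference of 0.74 (1.67-fold higher). Probe set 215305_at read 136 with miR-129-3p and 163 in control, a difference of -0.23. Their differences lay 0.97 apart, far more than the spread of 0.37, and the mean of the 2 was 0.25. The remaining PDGFRA probe sets, 1554828_at and 211533_at, read 16.5 and 17.2 with miR-129-3p and 23.5 and 18.9 in control, too dim to add a reading. PDGFRB encodes the beta receptor, the main receptor of the B and D chains. Its only probe set, 202273_at, read 2472 with miR-129-3p and 2910 in control, a difference of -0.23 (1.18-fold lower), within the pooled SD of 0.37.

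**Figure D2:**
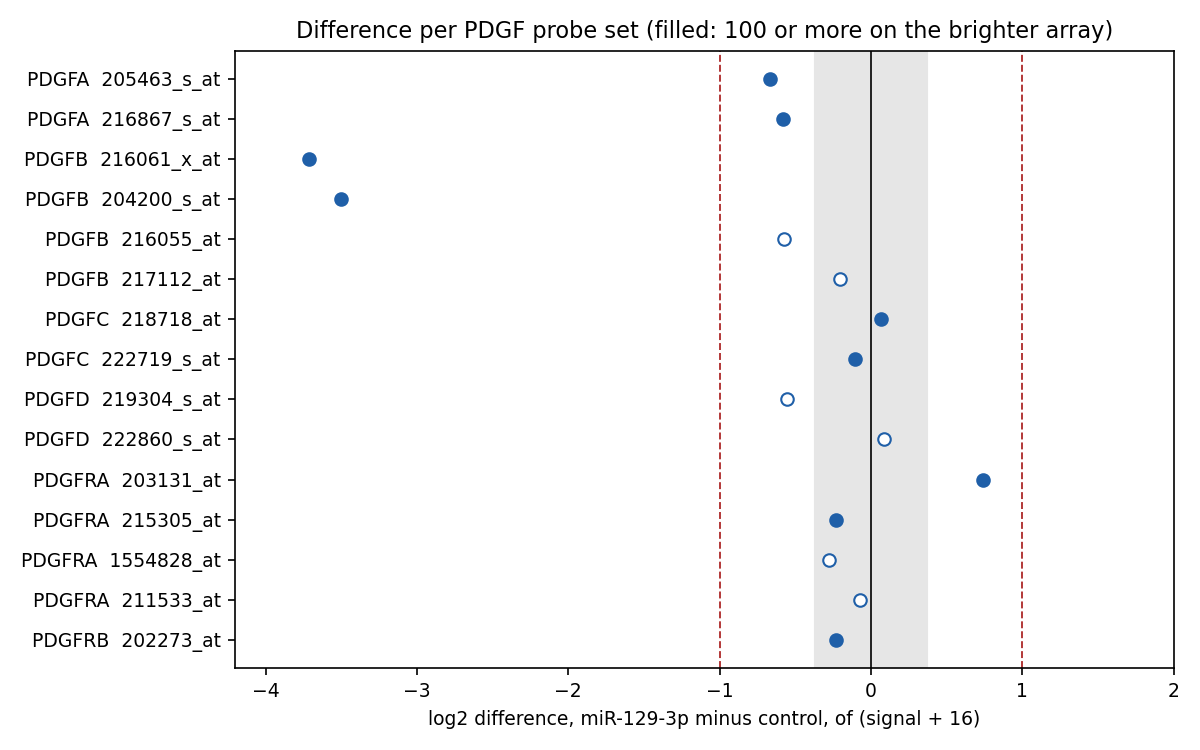
Log2 difference of (signal + 16), miR-129-3p minus control, for each of the 15 PDGF probe sets; filled points pass the filter, dashed lines mark 2-fold, and the grey band is 1 pooled SD (0.37) of differences among probe sets of 1 gene. The bright PDGFB probe sets, at -3.71 and -3.50, are the only ones past 2-fold.

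**Figure D3:**
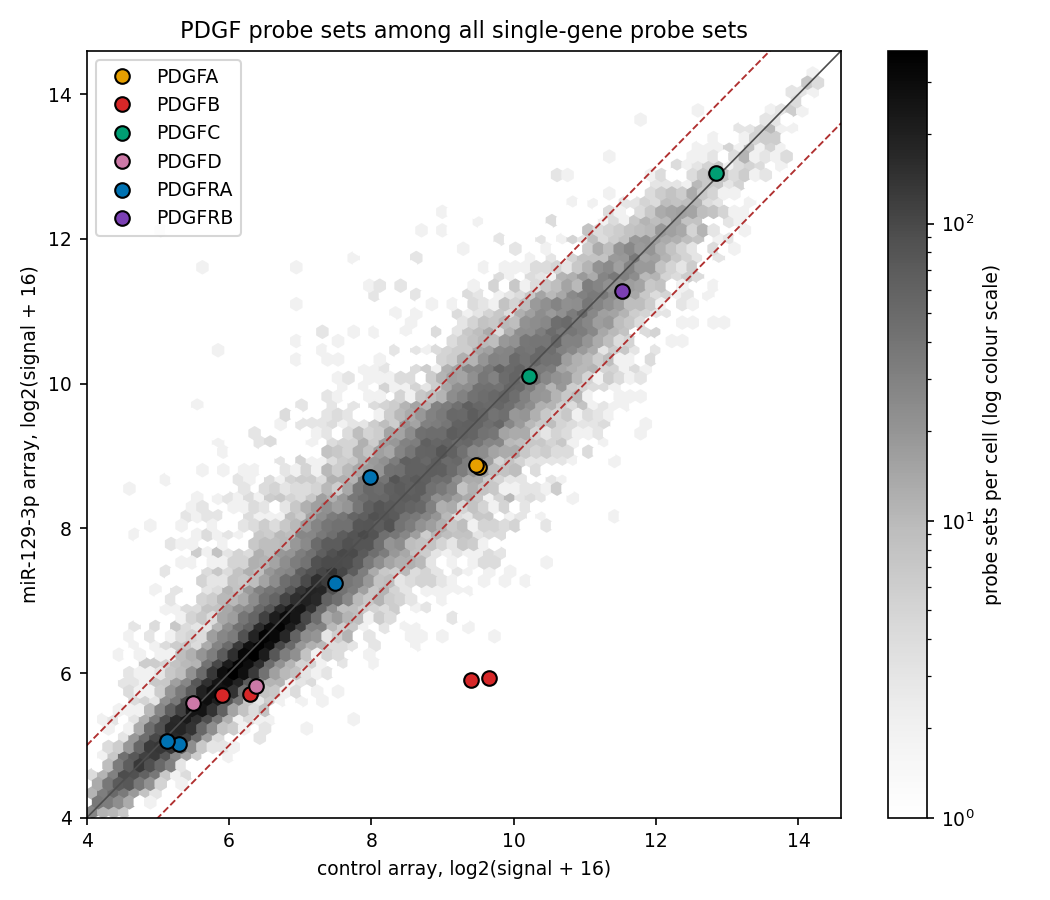
Log2(signal + 16) on the control array (x) and the miR-129-3p array (y) for all 41091 single-gene probe sets, as a density of cells, with the PDGF probe sets as coloured points; the solid line is equality and the dashed lines are 2-fold. Only the 2 bright PDGFB points lie outside the dashed lines among the coloured ones, at the lower edge of the cloud.

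The proteins that act on PDGF outside the receptor showed no common direction. A gene counted as measured passed the filter at its brightest probe set. Of 6 measured proteases that process the ligands, 1 was at least 2-fold higher and 0 were lower, with a median difference of 0.00, where over all genes above the filter 7.83% were at least 2-fold higher, 4.56% lower, and the median was 0.03. That gene was PLAT, tissue plasminogen activator, which activates PDGF-C: it read 4394 with miR-129-3p and 1657 in control, a difference of 1.40. PLAT was read on an _s_at probe set. The count of higher proteases was 0 without _x_at and _s_at probe sets, and 0 at 3-fold. PLAU, the urokinase that activates PDGF-D, differed by 0.18, and FURIN, which cuts the A and B chains, by -0.29.

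Of 5 measured ligand binders and co-receptors, 1 was at least 2-fold higher and 1 lower, with a median of -0.78. The shares of all genes were 7.83% and 4.56%. The counts became 0 higher and 2 lower when the probe sets of each gene were averaged. Without _x_at and _s_at probe sets they were 1 higher and 2 lower. At 1.5-fold they were 1 higher and 3 lower, against 17.3% and 10.8% of all genes. NRP1, neuropilin 1, a co-receptor of VEGF that also binds PDGF, differed by 1.20 (4641 with miR-129-3p and 2006 in control), and by 0.51 and 0.60 on its other probe sets above the filter. CSPG4, the NG2 proteoglycan, which binds PDGF-AA, differed by -1.38 (206 with miR-129-3p and 561 in control), and by -1.03 on its other probe set. LRP1, an endocytic receptor that modulates PDGFRB, differed by -0.78 on the probe set used and by -0.43 and -0.12 on its others. THBS1, thrombospondin 1, differed by -0.83 on the probe set used and by -3.58 to -1.47 on its 6 others, so its size is uncertain. PDGFRL, a receptor-like protein without a kinase domain, was under the filter at 42.7 with miR-129-3p and 18.0 in control.

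On the probe sets used, no measured gene of the signalling core downstream of the receptors passed 2-fold. Of all genes, 7.83% were at least 2-fold higher and 4.56% lower. Of 16 measured receptor-proximal adaptors, kinases and phosphatases, 0 were at least 2-fold higher or lower, and the median was 0.25. At 1.5-fold there were 2 higher and 2 lower, against 17.3% and 10.8% of all genes, shares close to these counts. The higher were the adaptors GRB2 (0.65) and GAB1 (0.62). The lower were the adaptor NCK2 (-0.76) and the phosphatase PTPN11, also called SHP2 (-0.76). On other probe sets above the filter, GRB2 differed by 0.20 and 0.53, short of 1.5-fold. Those of GAB1 ran from 0.42 to 0.67 and those of PTPN11 from -0.83 to -0.27. Of 8 measured RAS, ERK and AKT pathway genes 0 passed 1.5-fold, a limit that 17.3% of all genes passed upward and 10.8% downward. The 8 differences ran from -0.50 to 0.50, with a median of -0.01. Of 8 measured genes that attenuate the receptors 0 passed 2-fold, with a median of 0.04. PTPN2, a phosphatase that acts on PDGFRB, differed by 0.77 on the probe set used but by -0.32 to 0.45 on its others, and PTPN12, PTP-PEST, by 0.60 and 0.85. CBL, the ubiquitin ligase of activated receptors, differed by -0.58 on the probe set used and by -0.28 to -0.07 on its 3 others.

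Response genes of growth factor signalling went both ways. Of 20 measured, 6 were at least 2-fold higher and 2 lower, against 7.83% and 4.56% of all genes, with a median of 0.25. At 1.5-fold the counts were 7 higher and 5 lower, against 17.3% and 10.8% of all genes. The 6 higher genes were DUSP4, DUSP5 (1.30), DUSP6 and SPRY4 (1.41), which restrain ERK signalling, the AP-1 gene FOSL1 (1.32) and PHLDA1. DUSP4, an ERK phosphatase, read 4302 with miR-129-3p and 413 in control (3.33, and 2.71 and 3.54 on its other probe sets). DUSP6, a cytoplasmic ERK phosphatase, read 5876 with miR-129-3p and 810 in control (2.83, and 3.09 and 3.15 on its others). PHLDA1 differed by 1.80, with its 5 other probe sets between 0.52 and 2.02. The 2 genes at least 2-fold lower were transcription factors of the immediate early class. EGR1 read 632 with miR-129-3p and 2217 in control, a difference of -1.78, with -1.60 and -1.42 on its other probe sets, and EGR3 read 45.2 with miR-129-3p and 269 in control. EGR3 passed only through the control array, and with 100 as its miR-129-3p signal it was at least 2.69-fold lower. With a mean signal of 200 or more required, EGR1 was the 1 lower gene left. FOS, at 125 with miR-129-3p and 232 in control, differed by -0.81.

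EGR1 is a zinc finger factor that binds the PDGFA promoter, as known from cultured vascular cells, so a stretch of a PDGFA promoter window that holds its GC-rich letters is shown. It comes from a RefSeq window of GRCh38.p14, minus strand, at chr7:520401-520430 (bases 204 to 175 before an annotated start), with the match to GCGGGGGCG in capitals.
PDGFA promoter stretch: cggatcctggGCGGGGGCGcgtggcagccg
The stretch holds 1 of the 2 matches in its window, and this match overlaps a GC box (GGGCGG). Both strands were searched in 8 windows, which covered 4 of the 6 genes, from 250 bases before to 50 after each start. The EGR1 letters were found in some but not all PDGFA windows, and in 5.07% of all 35116 windows. None of the PDGFD, PDGFRA and PDGFRB windows held them. The GC box was found in every window of these genes except a PDGFRA window, and in 44.95% of all windows. A CArG box (CC, 6 letters of A or T, then GG) was found in 1 PDGFA window and 1.29% of all. A match describes the letters only, and binding was not measured. A link between the EGR1 and PDGFA differences was not tested.

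The closest relatives of the PDGF system were compared to show where it differs. The VEGFs share the cystine-knot fold of the PDGFs. Of 5 measured VEGF ligands and receptors 0 were at least 2-fold higher or lower, against 7.83% and 4.56% of all genes. Their median was 0.24, and VEGFC, a ligand of lymphatic growth, had the highest difference at 0.73. KIT, CSF1R and FLT3 are receptors of the same class as the PDGF receptors. Of the 4 measured members of that group, 2 were at least 2-fold higher and 0 lower, with a median of 1.31, against 7.83% and 4.56% of all genes. The count of higher genes was 1 when the probe sets of each gene were averaged. Of the receptors, CSF1R differed by 0.71. KIT (39 with miR-129-3p and 44 in control) and FLT3 (40 with miR-129-3p and 44 in control) were under the filter. The 2 higher genes were both ligands, CSF1, the macrophage growth factor (3036 with miR-129-3p and 879 in control, 1.77), and KITLG, stem cell factor (945 with miR-129-3p and 267 in control, 1.76). FLT3LG, the ligand of FLT3, differed by 0.85 on the probe set used and by 1.64 on its other probe set. The probe set used passed only through the miR-129-3p array (124 with miR-129-3p and 61.5 in control). The differences between the families were not tested.

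**Figure D4:**
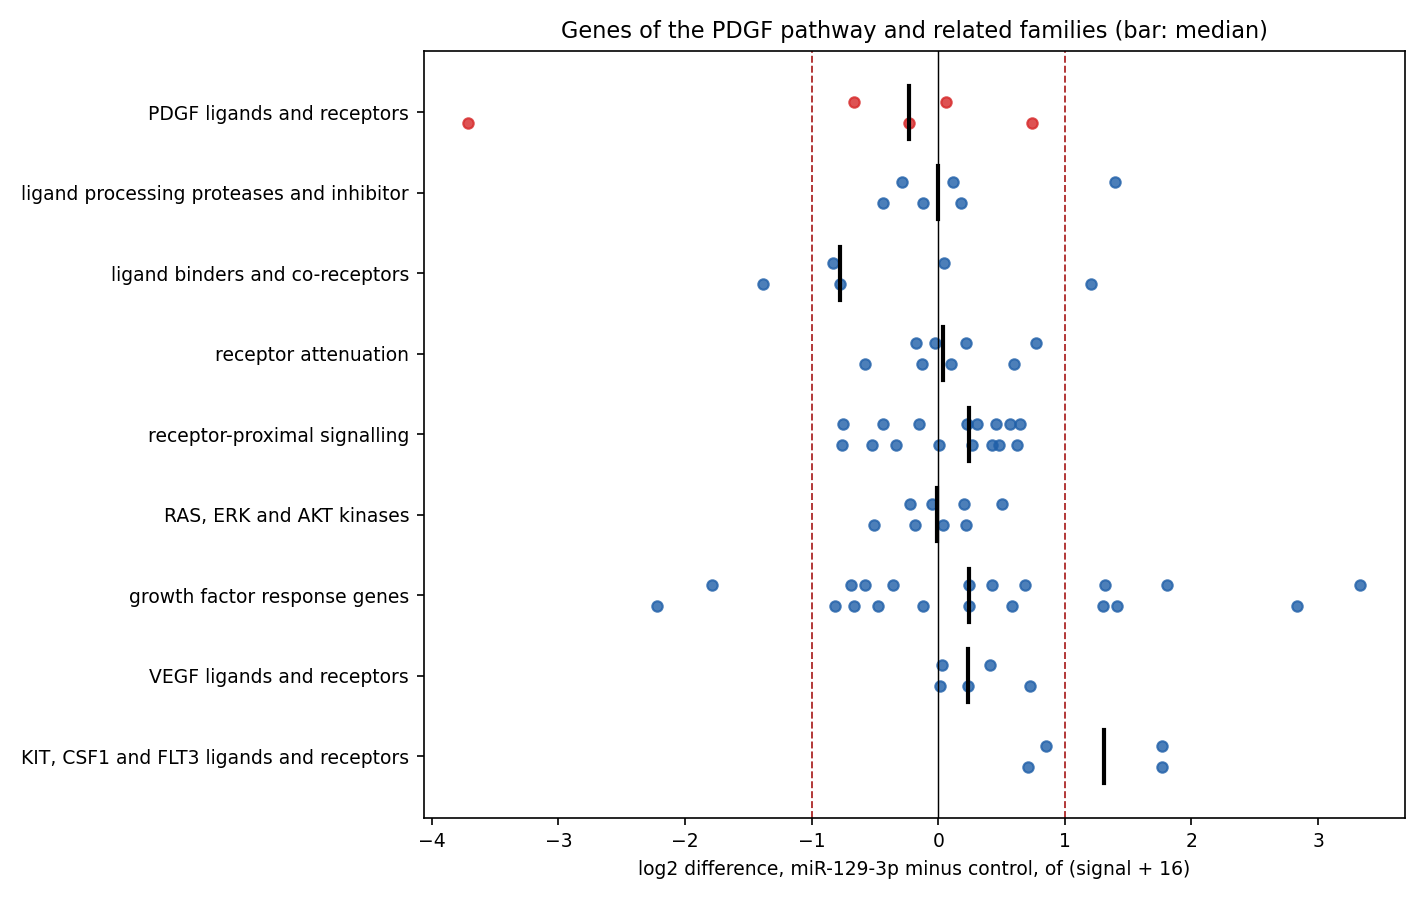
Log2 difference of (signal + 16), miR-129-3p minus control, for genes above the filter (1 point per gene, brightest probe set) in the PDGF system, red, and 8 lists of related genes, blue; bars are medians and dashed lines mark 2-fold. PDGFB, at -3.71, lies to the left of every other gene shown, and the DUSP4 and DUSP6 points, at 3.33 and 2.83, lie farthest to the right.

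Markers of cell types that use PDGF were read beside these results. Of 11 pigment epithelium markers with a probe set, 5 reached 100 with miR-129-3p and 4 in control. The brightest were OTX2 (1625 with miR-129-3p and 1452 in control) and MITF (1020 with miR-129-3p and 2470 in control). PMEL read 229 with miR-129-3p and 114 in control, and RDH5 197 with miR-129-3p and 169 in control. TTR read 110 with miR-129-3p and 91.0 in control. RPE65 read 6.66 with miR-129-3p and 6.44 in control. RPE65, RLBP1, BEST1, TYR, TYRP1 and SERPINF1 were under 100 on both arrays, so these markers did not reach the filter. Of 9 mural cell markers 8 passed the filter, of which 3 were lower by 2-fold or more and 0 higher by that much, against 4.56% and 7.83% of all genes. The 3 were ACTA2, smooth muscle actin (2187 with miR-129-3p and 11066 in control, -2.33), RGS5 (183 with miR-129-3p and 914 in control, -2.23) and CSPG4 (-1.38). The summed signal of the mural list was 3247 with miR-129-3p and 13255 in control, mostly ACTA2. RGS5 differed by -2.90 to -0.78 on its other probe sets, and NOTCH3 by -0.34 and 0.74. KCNJ8 went the other way, at 0.92 on the probe set used (103 with miR-129-3p and 46.9 in control) and 1.45, past 2-fold, on its other. The mural markers ABCC9, DES, MYH11, MCAM and KCNJ8 read under 200 on both arrays on the probe sets used. The part of these genes in the PDGFB result was not tested. Of 7 endothelial markers 3 passed the filter, with 0 past 2-fold on the probe set used and summed signals of 652 with miR-129-3p and 646 in control; PECAM1 differed by 0.22 there and 1.10 on its other probe set, and CDH5, at 18.0 with miR-129-3p and 26.4 in control, was near the bottom. Of 6 platelet markers 3 passed the filter, with 0 past 2-fold on the probe set used and summed signals of 536 with miR-129-3p and 596 in control. ITGB3 differed by -0.62 there and by -2.24 to -0.17 on its 4 others, and PPBP read 14.9 with miR-129-3p and 6.71 in control. Of 6 simple epithelial markers 4 passed the filter, of which 1 was at least 2-fold lower and 0 higher, against 4.56% and 7.83%. KRT8 read 4918 with miR-129-3p and 6138 in control (-0.32), KRT18 differed by -0.96 and KRT7 by -1.93. CDH1, E-cadherin, read 89.7 with miR-129-3p and 103 in control, and KRT19 and EPCAM were under 100 on both arrays.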

How the data were processed

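The deposited table held 1 intensity per probe set and array on a linear scale, made by the authors; MAS5 and RMA both appear in the submitters' processing notes and which of them gave these values is not said, and background correction, detection calls and scaling between arrays are not given in the sources used here. Groups came from the labels. Probe sets were named from the platform annotation, updated through gene IDs to the GRCh38.p14 gene table (41037 of 41091 matched); 1801 with several names and 11721 not listed were left out. No values of 14 genes of the 8 pathway lists were analysed here (80 of 94 had a probe set). Genes were read at the probe set with the highest mean log2(signal + 16). The members, lists and rules were chosen with earlier results of these data known. Named were all members, up to 3 genes at each end of a list past 1.5-fold, and genes needed to read a list. Genes named outside that rule (PLAU, FURIN, CBL, PDGFRL, DUSP5, SPRY4, FOSL1, CSF1R, KIT, FLT3 and the dim markers) were chosen after their values were seen. Alternatives were median centring, quantile normalization, a loess trend, constants of 1 and 64, a floor of 100, other filters, other fold limits, and other choices of probe set. Code was tested on simulated data. The loess fit used statsmodels 0.14.6, the figures matplotlib 3.10.9, and all else Python 3.11.15 with pandas 2.3.3 and numpy 2.4.6. With 2 arrays, their number limits the precision.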

Additional observations from a re-analysis of the deposited data

How the results depend on the processing

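PDGFB was lower under every alternative that kept its bright probe sets, all of them applied to the same 2 arrays. Its difference of -3.71 became -4.09 with a constant of 1 and -2.96 with 64, and -2.79 with signals under 100 set to 100. It was -1.998 as the mean of its 4 probe sets, the dim ones included. Without _x_at and _s_at probe sets it was -0.58, but only dim probe sets are left there, from which no difference was read. Without a constant, a setting added after the data were seen, it was -4.12. PDGFRA dropped to 0.038 as the mean of its 4 probe sets and 0.25 as the mean of those above the filter, the latter setting also added later. PDGFD became 0 with the floor. PDGFA (-0.75 to -0.62), PDGFC (-0.02 to 0.13) and PDGFRB (-0.27 to -0.22) moved by less than 0.37 under the alternatives that gave a value; PDGFA and PDGFD have no other probe sets when _s_at ones are left out. The 1.5-fold limit gave 1 PDGF probe set higher in place of 0.

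Over the 8 pathway lists together, 10 of 72 measured genes (13.9%) were at least 2-fold higher and 3 (4.17%) lower. The shares of all genes above the filter were 7.83% and 4.56%. At 1.5-fold the counts were 18 (25%) and 10 (13.9%), against 17.3% and 10.8% of all genes. At 3-fold 5 were higher and 2 lower. No share of all genes was taken at that limit, so these counts cannot be read against one. The median of ligand binders became -0.36 without _x_at and _s_at probe sets and -0.15 without a filter, and that of the VEGF list 0.73 without those probe sets. The median of the KIT, CSF1 and FLT3 list became 0.69 with the mean of all probe sets, 1.70 without _x_at and _s_at ones, 0.78 without a filter and 1.76 with a mean signal of 200 or more. No paired analysis was possible because each group has 1 array. Signal near background limits PDGFD and the size of the PDGFB difference.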

Other observations

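Among 6179 genes with at least 2 probe sets above the filter, 145 (2.35%) had every one of them lower by 2-fold or more with miR-129-3p and 19 (0.307%) lower by 4-fold or more. PDGFB was among both on its measured signals, with its miR-129-3p readings under the filter.

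The genes whose pair of log2 levels lay nearest to that of PDGFB, by Euclidean distance over the 2 arrays, were ACTG1P17, an actin pseudogene (35.4 with miR-129-3p and 593 in control, distance 0.47), EFNA2, an ephrin ligand (39.0 with miR-129-3p and 535 in control, distance 0.56), CRISPLD2, a secreted protein (74.7 with miR-129-3p and 818 in control, distance 0.57), and KIF20A, a mitotic kinesin (75.1 with miR-129-3p and 861 in control, distance 0.59). All these miR-129-3p signals, like that of PDGFB, were under the filter. With 2 arrays such nearness describes 1 pair of levels per gene and nothing more.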
